A study of Danio rerio with 2 samples.

Results

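The mitochondrial ribosomal protein genes were the 72 rows of the deposited table whose gene name begins with *mrpl* or *mrps* and a digit, of 32105 genes in all. By name 44 belong to the large and 28 to the small subunit of the ribosome inside mitochondria. The table compared 2 libraries from zebrafish embryos at 22 hours post fertilization that carry a gata1-EGFP transgene, in which the promoter of the erythroid master factor *gata1a* drives a green fluorescent protein. EGFP-positive cells were sorted, and the labels call them erythroblasts. One library came from embryos labelled *add1* knockout and the other from siblings labelled wildtype. *add1* encodes adducin 1, a protein of the membrane skeleton that caps actin filaments. The sources used here give neither the mutant allele nor how many embryos were pooled. The stated aim was to learn about the role of *add1* in the nucleus, at an age before the mutants differ visibly in the number of red cells.

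Mitochondria keep a small genome of their own, and the messengers made from it, all for parts of the respiratory chain and ATP synthase, are translated by a ribosome distinct from the cytosolic one. Its RNA is encoded in the mitochondrial genome, whereas every protein of it is encoded in the nucleus, made in the cytosol and imported. Some of these proteins descend from bacterial ribosomal proteins and others occur only in mitochondria. In red cell precursors mitochondria supply the iron-sulfur clusters and carry out the first and last steps of heme synthesis. Roles and positions given below are known from mammalian mitochondrial ribosomes unless another source is named.

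Counts were divided by the library total and are given as CPM (counts per 1000000 counts of the library). The knockout library held 5956344 counts and the sibling library 6157792. With 1 library per genotype no test across embryos was possible, and genotype cannot be told apart from any other difference between the preparations. Intervals in parentheses are exact 95% counting intervals of a ratio, and the balance between a pair of summed groups has a log-normal one. They describe counting error only, since embryo-to-embryo variation was not sampled and PCR copies without molecular tags count as independent reads. *add1* (ENSDARG00000103962) lies on chromosome 21 from 1964471 to 2042174, in build GRCz10 like all positions here. It had 18 knockout counts and 1166 sibling counts, the direction its labels give. Erythroid markers were abundant in both libraries and lower in the knockout: the 20 genes of that list summed to 51723 against 102272 CPM, with 9 at least 2-fold lower and 0 higher. Markers of other cell types were higher in the knockout library. The sums were 14212 against 4853 CPM for skeletal muscle, where 14 of 22 measured genes were at least 2-fold higher, and 5796 against 2424 CPM for hatching gland and notochord, where 9 of 12 were. Neural markers summed to 470 against 190 CPM (6 of 8 at least 2-fold higher) and epidermis markers to 3421 against 2117 CPM (3 of 13). *neurog1* and 1 row named *ascl1b* had 0 counts in the sibling library, and 1 row named *cpn1* had 0 in both. Myeloid markers went both ways, 1 of 12 at least 2-fold higher and 4 lower (1929 against 1870 CPM in sum, with *marco* at 0 counts in the knockout library), and of 8 measured endothelial markers 0 passed 2-fold (303 against 237 CPM in sum). Of the 9672 genes of the table with at least 10 CPM in the higher library, 10.1% were at least 2-fold higher and 2.56% lower. In sorted bulk RNA, fewer cells of a type and less RNA per cell cannot be told apart. The part of these shifts in the values below was not tested.

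As a group the mitochondrial ribosomal protein genes were at nearly the same level in both libraries. All 72 were detected, all reached the minimum of 10 CPM in the higher library, and 71 reached it in both. Together they had 26745 counts in the knockout and 24277 in the sibling library, or 0.449% (0.444 to 0.454) and 0.394% (0.389 to 0.399) of all counts. The summed level was 1.14-fold higher in the knockout library (1.12 to 1.16). The median log2 ratio, of CPM + 1 and knockout over sibling, was 0.16, against 0.13 over the 9672 genes of the table that passed the same minimum. Set against that median, 40 members lay above it and 32 below. With TMM factors, which centre the bulk of genes, the median of all genes moved by 0.21 to -0.08, that of the members was -0.04, and their summed ratio was 0.99. Directions of small differences therefore hold only for the scaling named.

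No member differed 2-fold. By the ratio of CPM + 1, 0 of 72 passed 2-fold upward and 0 downward, whereas 10.1% of all measured genes passed it upward and 2.56% downward. At 1.5-fold 6 members were higher and 1 lower, against 21.5% of all measured genes higher and 8.17% lower. With TMM factors 1 was higher and 2 were lower, against 14.7% and 15.2%. Among the 7253 genes whose mean CPM lay within the members' own range (12 to 157), 10.4% passed 2-fold and 27.1% passed 1.5-fold in either direction. The middle 50% of members spanned log2 ratios from -0.03 to 0.33, against -0.18 to 0.47 for the genes of that range of levels and -0.19 to 0.51 for all measured genes. The counting interval lay above 1 for 27 members and below 1 for 4, against 40% and 21.9% of all measured genes. With TMM factors these counts were 12 and 16, against 26.1% and 36.0%. The 12 whose interval lay above 1 by both scalings were *mrpl9*, *mrpl12*, *mrpl19*, *mrpl23*, *mrpl42*, *mrpl43*, *mrpl54*, *mrps2*, *mrps18b*, *mrps23*, *mrps25* and *mrps26*. The intervals of all other members given below as higher held 1 with TMM factors. *mrpl41*, *mrps28*, *mrpl24* and *mrpl51* had intervals below 1 by both scalings, joined with TMM factors by *mrpl3*, *mrpl4*, *mrpl16*, *mrpl18*, *mrpl20*, *mrpl44*, *mrpl53*, *mrps6*, *mrps14*, *mrps15*, *mrps27* and *mrps36*.

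**Figure D1:**
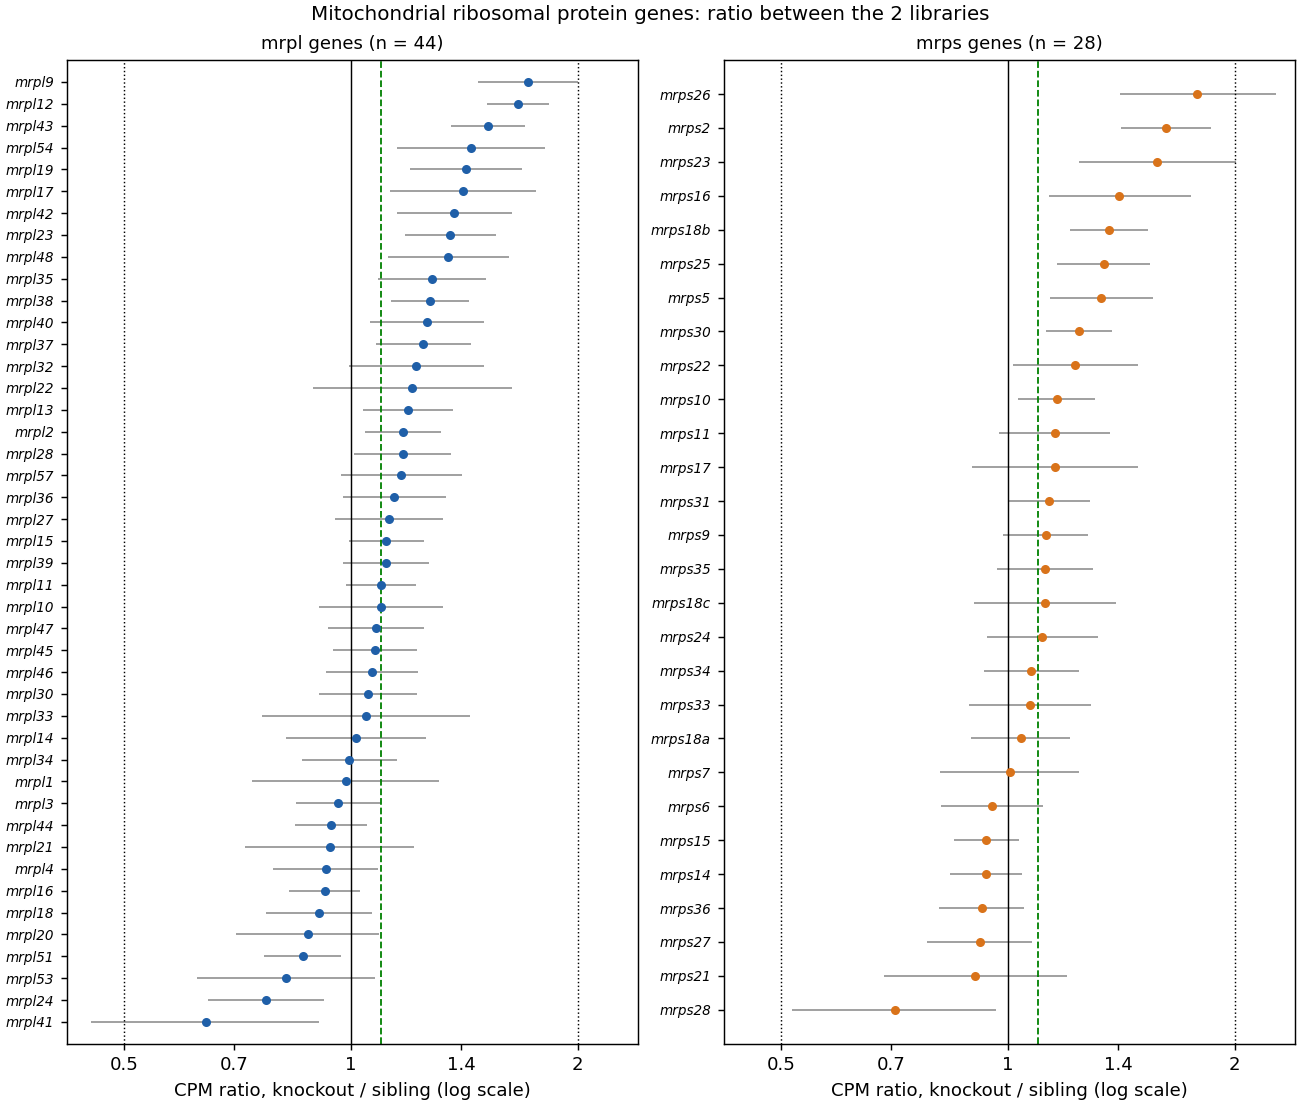
Ratio of CPM in the knockout over the sibling library (log axis) for the 44 *mrpl* genes on the left and the 28 *mrps* genes on the right, each with its exact 95% counting interval. Solid lines mark equal levels, dotted lines 2-fold, and dashed green lines the median of all 9672 measured genes; all 72 points lie between the dotted lines.

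Large and small subunit genes had the same balance in both libraries. The 44 *mrpl* genes had a median log2 ratio of 0.15, with 0.33 as their upper and -0.03 as their lower quartile, and the 28 *mrps* genes a median of 0.16, with quartiles of 0.33 and -0.01. Summed counts of *mrpl* over *mrps* genes were 1.58 in the knockout library and 1.57 in the sibling library. The ratio of these, which no scaling of the libraries can change, was 1.01 (0.976 to 1.05). The gene names and the structure of the mammalian particle disagree for 3 members. The products of *mrps30* and *mrps18a* sit in the large subunit, and that of *mrps36* is a component of the 2-oxoglutarate dehydrogenase complex. Moving them left the ratio of ratios at 1.01 (0.970 to 1.04), and leaving out the 3 members with the most counts gave 0.978.

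Levels per length differed far more between members than between libraries. In the deposited FPKM (fragment counts scaled to gene length and library size), members ranged from 7.91 to 142 in the knockout library and from 9.13 to 151 in the sibling library, although the proteins are built into one particle. The median was 44.3 FPKM in the knockout and 39.0 FPKM in the sibling library. The order was largely shared: across the 72 genes the Spearman correlation of FPKM between the libraries was 0.95, as a description of genes that share the same libraries and gene models. Of the 10 members with the highest FPKM in either library, 7 were the same.

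*mrps14* was the most abundant member per length in both libraries, at 142 FPKM in the knockout and 151 FPKM in the sibling. It encodes a protein of the head of the small subunit with a bacterial counterpart. *mrps15*, for another small subunit protein of bacterial descent, came next by the mean of both libraries, at 120 and 128 FPKM. By library total neither differed beyond counting error, with CPM 1.07-fold lower in the knockout in each case (0.956 to 1.19 and 0.967 to 1.18). With TMM factors both intervals lay below 1, as listed above. *mrpl13*, *mrpl15*, *mrps30* and *mrpl43* made up the rest of the 6 most abundant. *mrpl13*, a core protein of the large subunit, was at 110 and 92.1 FPKM, and *mrpl15*, another, at 91.2 and 81.8 FPKM. *mrps30* was at 104 and 83.8 FPKM. *mrpl43*, which occurs only in mitochondria, was at 120 and 78.9 FPKM and was the one of these 6 past 1.5-fold. At the low end *mrps25* had 12.2 and 9.13 FPKM from 451 and 348 counts. The deposited values imply a length of 6188 bases for it, the longest of any member, and its span overlaps those of *rbsn* and *cacna1db*, so its level per length is uncertain.

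**Figure D2:**
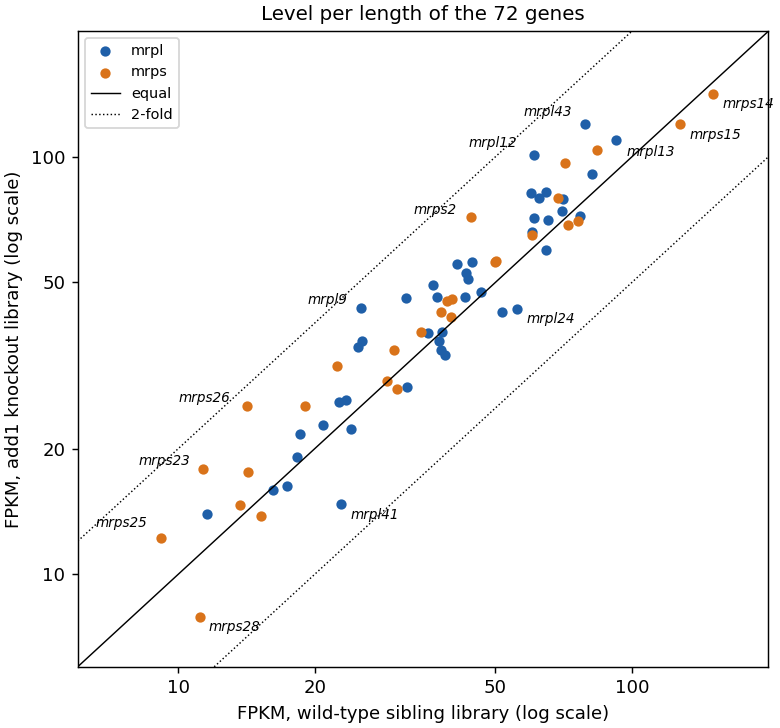
FPKM of the 72 genes in the sibling library (horizontal, log axis) and in the knockout library (vertical, log axis), blue for *mrpl* and orange for *mrps* genes, with a solid line for equal levels and dotted lines for 2-fold. The genes spread along the diagonal from 7.91 to 151 FPKM and stay between the dotted lines.

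In the large subunit, the stalk that recruits translation factors had a summed ratio of 1.35 (1.27 to 1.44), which rested on *mrpl12*. Without *mrpl12* it was 1.1. *mrpl12* encodes the stalk protein itself, the counterpart of bacterial L7/L12, which in mammals has also been found bound to mitochondrial RNA polymerase. *mrpl12* (ENSDARG00000038768, chromosome 3, 49018919 to 49031260) was the member with the most counts over both libraries together, 1169 in the knockout and 726 in the sibling library. In the sibling library *mrps15* had more, 838. The level of *mrpl12* was 196 against 118 CPM, 1.66-fold higher in the knockout (1.52 to 1.83) and 1.45-fold with TMM factors (1.32 to 1.59). The 2 proteins of the stalk base were closer to equal. *mrpl10* was at 38.8 against 35.4 CPM, 1.1-fold (0.906 to 1.32), and *mrpl11* at 119 against 108 CPM, 1.1-fold (0.986 to 1.22), both next to the median of all genes. *mrpl1*, for the mobile arm on the opposite side of the subunit, was at 16.6 against 16.9 CPM.

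*mrpl9* had the highest ratio in the large subunit. It encodes the counterpart of a bacterial protein that lies near the base of the L1 arm. *mrpl9* (ENSDARG00000063249, chromosome 19, 7599379 to 7606663) had 450 against 271 counts, or 75.5 against 44.0 CPM, and was 1.72-fold higher in the knockout library (1.47 to 2.0). Its neighbour on the chromosome, *mrpl24*, lies 12170 bases away (7576866 to 7587209) and went the other way. *mrpl24* encodes a protein at the exit of the nascent peptide tunnel and had 225 against 301 counts, 37.8 against 48.9 CPM. That was 1.29-fold lower in the knockout library (1.09 to 1.54). The span of *mrpl24* overlaps that of *si:ch211-210h11.7*. The 2 other pairs of members within 50000 bases of each other differed less. *mrpl46* and *mrps11*, 221 bases apart on chromosome 7, were at 1.07-fold (0.928 to 1.23) and 1.15-fold (0.975 to 1.37). *mrpl16* and *mrpl39*, 1872 bases apart on chromosome 1, were 1.08-fold lower (0.972 to 1.21) and 1.11-fold higher (0.978 to 1.27). Both spans overlap that of *cul4a*, and that of *mrpl39* also overlaps *dre-mir-155* and a gene without a name.

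Around the peptide exit tunnel the members went both ways. Beside *mrpl24*, the lower one, *mrpl17* was at 32.2 against 22.9 CPM, 1.41-fold higher (1.13 to 1.76), and *mrpl23* at 80.1 against 59.1 CPM, 1.35-fold higher (1.18 to 1.56). *mrpl45*, whose product holds the ribosome to the inner membrane where its proteins are inserted, was at 82.3 against 76.5 CPM, 1.08-fold (0.946 to 1.22). *mrpl47* and *mrpl22* were at 1.08-fold (0.932 to 1.25) and 1.21-fold (0.892 to 1.63). In sum these 6 genes were 1.12-fold higher (1.04 to 1.19), close to the ratio of the whole group.

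The central protuberance is the crown of the large subunit that touches the head of the small one. Of its 6 members, *mrpl48*, *mrpl38* and *mrpl40*, all particular to mitochondria, were 1.35-fold (1.12 to 1.62), 1.27-fold (1.13 to 1.43) and 1.26-fold (1.06 to 1.5) higher in the knockout library. With TMM factors all 3 intervals held 1 (0.974 to 1.41, 0.983 to 1.25 and 0.921 to 1.3). *mrpl46*, also particular to mitochondria, was at 1.07-fold (0.928 to 1.23). Of the members of bacterial descent, *mrpl27* was at 1.12-fold (0.954 to 1.32) and *mrpl18* was 1.1-fold lower (0.938 to 1.30). The summed ratio was 1.16 (1.09 to 1.23), near that of all members.

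The rest of the large subunit held the lowest member and several of the higher ones. *mrpl41*, particular to mitochondria (ENSDARG00000002264, chromosome 5, 24569094 to 24571379), had 56 counts against 90. At 9.40 against 14.6 CPM it was 1.55-fold lower in the knockout library (1.1 to 2.21), the lowest of all 72 and also the one below 10 CPM in a library. *mrpl53* was at 16.8 against 20.5 CPM, 1.22-fold lower (0.930 to 1.60), and *mrpl51* at 88.1 against 102 CPM, 1.16-fold lower (1.03 to 1.30). Both are particular to mitochondria, and the span of *mrpl51* overlaps that of *cyp4t8*. *mrpl20* (1.14-fold, 0.917 to 1.42) and *mrpl16* (1.08-fold), of bacterial descent, were the other large subunit genes among the 10 lowest, together with *mrpl18*. The span of *mrpl20* overlaps those of *NBL1* and *atad3b*. The intervals of *mrpl20*, *mrpl16*, *mrpl18* and *mrpl53*, and of *mrpl44* and *mrpl4* below, held 1 by library total and lay below 1 with TMM factors. On the other side *mrpl43* was at 130 against 85.4 CPM, 1.52-fold higher (1.36 to 1.70). *mrpl54* was at 32.1 against 22.2 CPM, 1.44-fold higher (1.15 to 1.81), and *mrpl19*, which in bacteria forms a bridge between the subunits, at 54.7 against 38.5 CPM, 1.42-fold higher (1.2 to 1.69). *mrpl44*, a protein with the fold of a ribonuclease, was at 104 against 110 CPM, 1.06-fold lower (0.952 to 1.19). The large subunit genes not named here ran from *mrpl4*, 1.08-fold lower (0.919 to 1.27), to *mrpl42*, which was at 51.2 against 37.4 CPM and 1.37-fold higher (1.15 to 1.63).

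Among small subunit genes, *mrps26* was the member with the highest ratio of all 72. It encodes a protein particular to mitochondria (ENSDARG00000039719, chromosome 13, 8971531 to 8979230). It had 195 counts against 113, or 32.7 against 18.4 CPM, and was 1.78-fold higher in the knockout library (1.41 to 2.27) and 1.55-fold with TMM factors (1.22 to 1.97). *mrps2*, of bacterial descent (ENSDARG00000103198, chromosome 21, 7560451 to 7566573), had 545 against 348 counts. At 91.5 against 56.5 CPM it was 1.62-fold higher (1.41 to 1.86). *mrps23*, particular to mitochondria, was at 30.2 against 19.2 CPM, 1.58-fold higher (1.24 to 2.01), and *mrps16*, of bacterial descent, at 34.2 against 24.4 CPM, 1.41-fold higher (1.13 to 1.75). These 4 were the small subunit genes among the 10 highest members.

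The lower end of the small subunit was led by *mrps28*. It encodes the counterpart of bacterial S1 and lies on chromosome 22 (26261235 to 26270991), where its span overlaps that of *sde2*. *mrps28* had 72 counts against 105, or 12.1 against 17.1 CPM, and was 1.41-fold lower in the knockout library (1.04 to 1.93). *mrps21* (16.6 against 18.4 CPM) and *mrps27*, an RNA-binding protein particular to mitochondria (49.5 against 53.9 CPM), were lower by less than their counting error by library total. Among the others, *mrps5* at the messenger channel was at 62.6 against 47.1 CPM, 1.33-fold higher (1.14 to 1.56), and *mrps22* at 40.1 against 32.6 CPM, 1.23-fold higher (1.01 to 1.49), with both intervals holding 1 by TMM factors (0.989 to 1.35 and 0.882 to 1.3). *mrps36*, of the 2-oxoglutarate dehydrogenase complex, was at 74.4 against 80.5 CPM, 1.08-fold lower (0.951 to 1.23), with a TMM interval below 1 (0.705 to 0.914). The small subunit genes not named in the text ran from *mrps6*, 1.05-fold lower (0.898 to 1.23), to *mrps10*, 1.16-fold higher (1.03 to 1.31).

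The *mrps18* genes are 3 paralogs of 1 bacterial protein that occupy different places in the particle. *mrps18b*, for a small subunit protein, was at 109 against 79.9 CPM, 1.36-fold higher (1.21 to 1.53). *mrps18c*, the closest in position to the bacterial protein, was at 30.6 against 27.3 CPM, 1.12-fold (0.903 to 1.39). *mrps18a*, whose product sits in the large subunit, was at 58.3 against 56.0 CPM, 1.04-fold (0.893 to 1.21). Per length *mrps18b* was also the most abundant, at 96.8 and 71.1 FPKM in the knockout and sibling libraries. *mrps18c* was at 42.4 and 37.9 FPKM and *mrps18a* at 41.4 and 39.8 FPKM, in opposite order in the 2 libraries. The spans of *mrps18c* and *mrps18a* overlap those of *fam175a* and *apex1*.

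**Figure D3:**
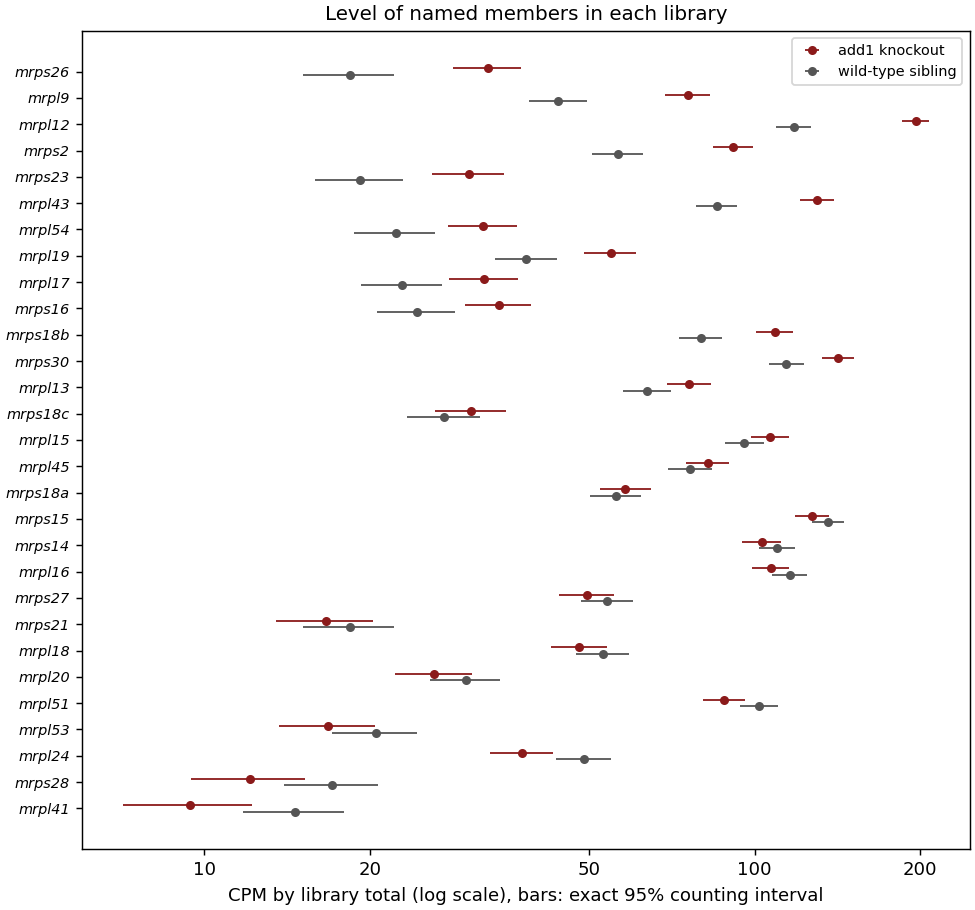
CPM by library total (log axis) of 29 members in the knockout library (dark red) and in the sibling library (grey), with exact 95% counting intervals, ordered by their ratio. At the top, from *mrps26* down to *mrps16*, the bars of the 2 libraries do not touch; in the lower part most of them overlap.

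Grouped by descent, the 44 members with a bacterial counterpart had a median log2 ratio of 0.15 and the 28 members particular to mitochondria 0.20, with *mrps18c* alone of its family placed in the first class. Of the former 13 had an interval above 1, or 29.5%, and of the latter 14, or 50%, around the 40% of all measured genes. With TMM factors these were 5 (11.4%) and 7 (25%), against 26.1% of all measured genes. An interval below 1 by TMM factors was found for 10 (22.7%) and 6 (21.4%), against 36.0%. The highest median, 0.24, was that of the 10 small subunit members particular to mitochondria, whose summed level was 1.2-fold higher (1.15 to 1.26). Large subunit members particular to mitochondria, placed by structure, were close to it, with *mrpl57* at 0.22 as their middle value. The 15 small subunit members of bacterial descent had a median of 0.16 and a summed ratio of 1.1 (1.05 to 1.14). The median of these 15 was 0.02 above that of all measured genes and the median of the 10 was 0.10 above it. The 10 include *mrps18b*, a paralog of a bacterial protein. Without *mrps18b* the middle value of that class was that of *mrps31*, 0.18. The 28 also include *mrps18a*, and *mrps36* of the 2-oxoglutarate dehydrogenase complex. Whether the classes differ could not be tested with 1 library per genotype.

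A further 10 rows encode proteins of the same particle under names outside the rule, such as capitalised or historical symbols, and 9 of them were measured. Of these 9, 0 passed 2-fold, against 10.1% of all measured genes upward and 2.56% downward. Their median log2 ratio was 0.25, against 0.13 over all measured genes, and their summed ratio was 1.2 (1.14 to 1.25). *dap3*, a GTP-binding protein of the small subunit, was at 177 against 165 CPM, 1.07-fold (0.982 to 1.17). *MRPS12*, which lines the decoding centre, was at 33.2 against 28.4 CPM, 1.17-fold (0.95 to 1.44). The highest was *MRPL55*, a large subunit protein, at 42.6 against 26.8 CPM, 1.59-fold higher (1.30 to 1.95). It and *aurkaip1* (1.31-fold, 1.12 to 1.52) and *ptcd3* (1.26-fold, 1.12 to 1.43) were named after their values were seen.

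The factors that work with the ribosome were also near the level of all genes. Of 21 measured genes in the list of mitochondrial translation factors 0 passed 2-fold, 3 were at least 1.5-fold higher and 0 lower, and the median log2 ratio was 0.12. The 3 higher make 14.3%, below the 21.5% of all measured genes, of which 8.17% were at least 1.5-fold lower. Past 2-fold were 10.1% of all measured genes upward and 2.56% downward. The 3 higher ones were *mtrf1l*, a release factor gene (15.1 against 8.12 CPM, above the minimum in the knockout library alone), *mrrf*, which encodes the factor that splits spent ribosomes (57.2 against 34.1 CPM, 1.68-fold, 1.41 to 2.0), and *qrsl1*, for a subunit of the enzyme that makes mitochondrial glutaminyl-tRNA (27.5 against 17.7 CPM). *mars2*, the mitochondrial methionyl-tRNA synthetase gene, was the lowest at 12.8 against 19.5 CPM, 1.53-fold lower by CPM (1.14 to 2.06). *tufm*, the elongation factor that brings tRNA to the ribosome, was at 299 against 293 CPM. The list also holds *letm1* and *mief1*, membrane proteins whose main roles lie outside translation.

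Genes for assembly of the mitochondrial ribosome had a median of 0.35, or 0.22 above that of all genes. This excess depended on the minimum level. It was 0.06 with 1 CPM, 0.13 with 50 CPM (5 genes), 0.19 with 10 CPM in both libraries and 0.27 with no minimum. With TMM factors it was 0.19 and with FPKM, at a minimum of 10 FPKM, 0.17. With no minimum the median of all 32105 genes, many of them without a count, was 0. The 0.27 is thus the median of the list itself. Of 21 measured genes 2 were at least 2-fold higher, 6 at least 1.5-fold higher and 0 lower. The 2 make 9.52% and the 6 make 28.6%, against 10.1% and 21.5% of all measured genes, of which 8.17% were at least 1.5-fold lower. With TMM factors 1 of 20 passed 2-fold and 4 passed 1.5-fold, against 7.05% and 14.7% of all genes. Several genes of the list passed the minimum only through the knockout library, where they were higher, among them *mterf3* and *noa1*. With 10 CPM required in both libraries, 1 of 17 passed 2-fold and 3 passed 1.5-fold, or 5.88% and 17.6%, against 5.18% and 14.9% of all genes. *grsf1*, an RNA-binding protein of the granules where mitochondrial RNA is handled, was at 131 against 62.4 CPM, 2.09-fold higher (1.85 to 2.37). *mterf3*, for a protein that binds mitochondrial DNA and is needed for ribosome assembly, was at 12.8 against 4.55 CPM, from 76 and 28 counts, 2.81-fold higher (1.80 to 4.50). *noa1*, a GTPase gene, was at 17.8 against 8.77 CPM, and *ngrn*, needed for the large ribosomal RNA, at 24.8 against 12.5 CPM, each short of 2-fold by CPM + 1. One of the 6 genes past 1.5-fold, *mphosph6*, encodes a cofactor of the nuclear exosome and is not a mitochondrial assembly factor. Markers of muscle, hatching gland and neural cells were higher in the same library, with the sums given above.

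The list for transcription and RNA processing in mitochondria had a median of 0.12 over 28 measured genes, with 1 at least 2-fold higher, 6 at least 1.5-fold higher and 1 lower. The 1 past 2-fold makes 3.57%, against 10.1% of all measured genes. The 6 make 21.4%, next to the 21.5% of all measured genes, of which 8.17% were at least 1.5-fold lower. The gene past 2-fold, *myca*, reached 10 CPM only in the knockout library, as did *ppargc1a* among those named, and with the minimum in both libraries 0 of 26 passed 2-fold. *tefm*, the elongation factor of mitochondrial transcription, was at 27.4 against 14.3 CPM, 1.91-fold higher (1.47 to 2.51). The others named from this list regulate transcription in the nucleus. *myca* was at 14.6 against 4.87 CPM and *mycb* at 415 against 236 CPM, both Myc factors that drive growth genes, and *ppargc1a*, a coactivator of mitochondrial biogenesis, at 18.1 against 9.58 CPM. *nrf1* and *gabpa*, which encode the nuclear respiratory factors that bind promoters of mitochondrial protein genes, were looked up after their values were seen. *nrf1* was at 62.6 against 104 CPM, 1.66-fold lower in the knockout library (1.46 to 1.90), and *gabpa* at 69.7 against 81.0 CPM, 1.16-fold lower (1.02 to 1.33).

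Beside the genes of the other ribosome, which were lower in the knockout library, the members were near the median of all genes. The 81 measured cytosolic genes had a median log2 ratio of -0.30, with 71 below 1 and 10 above, whereas 52 of the 72 mitochondrial ones were above 1 and 20 below. With TMM factors the mitochondrial split around 1 turned to 31 above and 41 below, and the cytosolic median was -0.50. The median of all measured genes by library total was 0.13, and around it the members split into 40 above and 32 below. Summed counts of mitochondrial over cytosolic ribosomal protein genes were 0.245 in the knockout and 0.187 in the sibling library. This ratio, which does not depend on the scaling, was 1.31-fold higher in the knockout library (1.28 to 1.33). One of the rows named *rps27.2*, on an unplaced scaffold, went against the rest of the cytosolic list with 8568 against 1144 counts, and without it the ratio was 1.41. The nuclear subunits of the respiratory chain and ATP synthase stood between, with a median of -0.02 over 78 measured genes, and the members were 1.18-fold higher against them (1.15 to 1.2). Against the 13 messenger RNAs of the mitochondrial genome, which the mitochondrial ribosome translates, the members were 1.28-fold higher (1.25 to 1.31), and those 13 had a median of -0.33. Erythroid markers were lower and markers of muscle, hatching gland, neural and epidermal cells higher in the knockout library, and their part in these ratios was not tested.

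**Figure D4:**
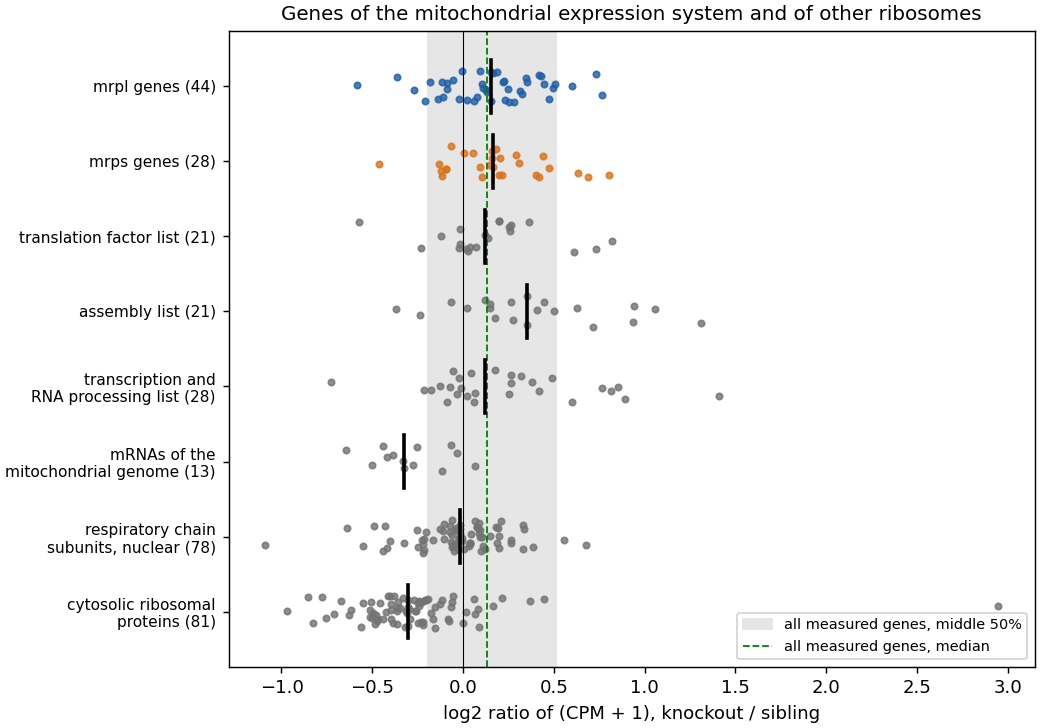
Log2 ratio of CPM + 1, knockout over sibling, for each measured gene (points) of 8 groups, with the number of genes in parentheses and a black bar at each median. The grey band and dashed line are the middle 50% and median of all measured genes; members sit around that line, while messenger RNAs of the mitochondrial genome and cytosolic ribosomal protein genes lie mostly left of it, apart from a copy of *rps27.2* near 2.95.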

How the data were processed

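RNA from sorted gata1-EGFP-positive cells was made into libraries after a SMART-Seq HT kit step, per the labels' protocols. The submitters' processing notes name the zebrafish build GRCz10. The aligner, counter, strand setting and any filter were not given in the sources used here. Per the file headers, the authors deposited raw read counts and FPKM per gene for 2 libraries, 1 per genotype.

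Counts were scaled to library totals, 5956344 in the knockout and 6157792 in the sibling library, and log2 ratios use CPM + 1. A gene was measured at 10 CPM or more in the higher library. No p-value was computed. Ratios have exact (Clopper-Pearson) 95% intervals, except the balance between a pair of summed groups, where a log-normal interval replaced the planned exact one. TMM factors (edgeR 4.0.16, R 4.3.3) were 1.07 and 0.932. Other steps used Python 3.11.15 and scipy 1.17.1. The rules were tried on simulated counts with counting error alone, the error that the intervals assume. The simulation held no PCR copies and no embryo-to-embryo variation, so it cannot show how the rules perform under these.

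Of 230 listed symbols 192 were gene names in the table. Overlap of gene spans was read from the deposited positions. Beside the overlaps named above, the spans of *mrpl4*, *mrpl11*, *mrpl27*, *mrps10*, *mrps22* and *mrps35* also overlap that of another gene. The members, the 11 lists and the alternatives were chosen with earlier results of these data known, and the cytosolic, respiratory chain and mitochondrial messenger groups were taken by name pattern. Named were the 10 highest and 10 lowest members, the 6 most abundant per length, the *mrps18* paralogs, *mrpl12*, *mrpl45*, *mrps30*, *MRPS12* and *dap3*, and the 4 largest ratios of each related list. Other members were named to fill out a site.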

Additional observations from a re-analysis of the deposited data

How the results depend on the processing

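With 1 library per genotype, no library could be left out. No paired analysis was possible because each group has 1 library. The counts of 0 members past 2-fold higher and 0 lower held with every scaling, pseudocount and minimum tried and without the 15 members whose span overlaps another gene. Many of these alternatives could not have changed them. All 72 members were measured to begin with, so a changed minimum or fewer members could only return 0. A larger pseudocount shrinks ratios, and FPKM keeps the CPM ratio of each gene. The other scalings and the smaller pseudocount could have changed the counts. A 1.5-fold rule gave 6 and 1, and counting intervals that exclude 1 gave 27 and 4, since both are weaker rules.

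Scaling moved the medians of log2 ratios as a whole. With TMM, median-of-ratios and upper quartile factors, the median was -0.0373, -0.0353 and -0.0345 for members (0.16 by library total), -0.0454, -0.0434 and -0.0426 for *mrpl* genes, and -0.0361, -0.0341 and -0.0333 for *mrps* genes. It was -0.0725, -0.0706 and -0.0698 for translation factors, 0.12, 0.12 and 0.12 for assembly genes, and -0.0772, -0.0752 and -0.0744 for transcription and RNA processing genes. The summed member ratio was 0.990, 0.991 and 0.992. Totals without globin, mitochondrial and cytosolic ribosomal protein genes gave 0.10 for members, 0.0896 for *mrpl*, 0.10 for *mrps*, 0.0588 for translation factors, 0.29 for assembly, 0.0581 for transcription and RNA processing, and 1.09 for the summed ratio. All genes moved with them: with the same 4 scalings the members' median stayed 0.03 to 0.04 above that of all genes. With a minimum of 1 CPM it was 0.05 below, and it was 0.07 above with FPKM, 0.08 with the minimum in both libraries, 0.12 with 50 CPM (44 members) and 0.16 with no minimum.

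With FPKM the minimum was applied as 10 FPKM, so other genes were measured. The assembly list had a median of 0.26 with FPKM (14 genes) and 0.28 with a pseudocount of 5. It was 0.27 with a minimum of 1 CPM or none, 0.18 with 50 CPM (5 genes) and 0.27 with the minimum in both libraries. The transcription and RNA processing list had 0.0635 with FPKM (20 genes), 0.0645 with 50 CPM, 0.18 with no minimum and 0.0645 with the minimum in both libraries. Some alternatives were added after seeing the data. The ratio of members to cytosolic ribosomal protein genes was 1.41 without the row of *rps27.2* that was higher, and the stalk without *mrpl12* was at 1.1. The members without overlapping spans had a median of 0.19 and a summed ratio of 1.17. Each of these values moved beyond counting error. Those of the members with the 10 genes outside the name rule stayed within it. Of 306 values of single named members under the alternatives, 270 stayed within their counting interval, 36 did not and 13 changed sign. The 270 include every value under a changed minimum, which leaves the ratio of a member as it was, so these could not move. They also include every FPKM value. FPKM keeps the CPM ratio of a member, and only the added 1 weighs differently. All 36 came with TMM, median-of-ratios or upper quartile factors. Such factors are set per library and multiply the CPM ratio of every gene by the same number, so all members shift together. Depth limits the members with fewest counts most: *mrpl41*, at 56 and 90 counts, has an interval from 1.1 to 2.21.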
